A study of Mus musculus with 7 samples.

Results

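A set of 10 imprinted growth genes was followed through late gestation and postnatal life in the mouse adrenal gland: the paternally expressed Dlk1, Rtl1, Peg3, Plagl1, Mest, Ndn and Slc38a4, and the maternally expressed Meg3, Cdkn1c and Grb10. They were taken by symbol from the deposited table of normalized counts, and all 10 of 10 were found among its 35976 genes. All 10 also passed the filter on low genes (mean over the 7 libraries of 10 or more normalized counts), which 16720 genes passed. All animals were C57BL/6J mice, an inbred strain, with no other genotype or treatment named. The libraries were made from total RNA of whole glands, 1 pool for each age and sex. The pools were E18.5 (late in gestation, 40 glands, sex not determined), P1 (postnatal day 1) male (16 glands) and female (22 glands), P2 weeks male and female (6 glands each), and P12 weeks male and female (4 glands each). Each group was thus 1 library, and p-values measure only the spread between the 6 postnatal libraries around 1 shared age profile and a constant sex difference.

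An imprinted gene is transcribed mainly from the copy inherited from 1 parent, chosen by DNA methylation set in the germ line. Many such genes act on fetal and early postnatal growth, and a set of them is known to be high together in embryonic organs and to be turned down together as growth slows. Plagl1 and Peg3 encode zinc finger proteins, and Plagl1 is known to bind regulatory DNA of other imprinted genes, Igf2, H19 and Cdkn1c among them. In an inbred strain both parental copies have the same sequence, so the counts below give total transcript and do not show which copy it came from. In a whole gland, fewer cells of a type and less RNA per cell cannot be told apart.

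Library depth was 15184210 to 23551289 reads in genes. The P1 female library stood apart from P1 male. The summed level of the Y-linked genes Ddx3y, Eif2s3y, Kdm5d and Uty was 20.7% of that in P1 male, against 0.0719% in P2 weeks female and 0.0369% in P12 weeks female. Its cortex list was the lowest of the 7 libraries, and against P1 male its chromaffin list was at 91937 against 46832 and its skeletal muscle list at 133050 against 73862 normalized counts. Counts of the 10 genes that use P1 are therefore also given without P1 female. Liver, skeletal muscle and connective tissue transcripts were high in the E18.5 and P1 libraries, and their values are given beside the results below. The markers of the adrenal cortex (Star, Cyp11a1, Cyp21a1, Cyp11b1, Hsd3b1, Mc2r and Nr5a1) summed to 247747 to 1118688 normalized counts, with none at 0 in any library.

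The 10 genes lie on 6 mouse autosomes (GRCm38.p6, RefSeq). Plagl1 is at chr10:13090832-13131694 on the plus strand, Mest at chr6:30733506-30748466 (plus), Slc38a4 at chr15:96994816-97055956 (minus), Grb10 at chr11:11930499-12037428 (minus) and Ndn at chr7:62348277-62349928 (plus). Peg3, at chr7:6703892-6730462, and Cdkn1c, at chr7:143458339-143461059, are on the minus strand of the same chromosome as Ndn, each in a separate imprinted domain. Dlk1 (chr12:109452485-109463336, plus), Meg3 (chr12:109540996-109571729, plus, a long noncoding RNA) and Rtl1 (chr12:109564900-109604418, minus) share the Dlk1-Dio3 domain. The annotated spans of Meg3 and Rtl1 overlap on opposite strands over 6830 bases (chr12:109564900-109571729), and the counting's use of strand is not given in the sources used here, so reads from that stretch cannot be told apart. The same holds for Rtl1 and Rian, for Mest and Copg2, and for Ndn and Gm32061, which also overlap on opposite strands. The span of Peg3 overlaps that of Peg3os, whose strand was not looked up.

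RefSeq promoter windows, the 250 bases before a transcription start, were found for 8 of the 10 genes, 14 windows in all. They are shown because the genes differ widely there in CG, the sequence on which DNA methylation is set. Methylation was not measured, and whether these windows carry imprinting marks was not tested. Capitals mark each CG, and in these 6 lines bases inside a GENCODE M21 exon are left out. The lines give part of the Plagl1 window (chr10:13090582-13090690), the Mest window inside the gene (chr6:30737800-30738049), the first Grb10 window (chr11:12037421-12037670), the first Slc38a4 window (chr15:97055957-97056206), the Dlk1 window (chr12:109452573-109452822) and the first Meg3 window (chr12:109540746-109540995), each 5′ to 3′ on the strand of the gene.
Plagl1: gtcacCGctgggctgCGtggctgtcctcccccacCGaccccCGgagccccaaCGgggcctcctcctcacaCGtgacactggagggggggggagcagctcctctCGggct
Mest: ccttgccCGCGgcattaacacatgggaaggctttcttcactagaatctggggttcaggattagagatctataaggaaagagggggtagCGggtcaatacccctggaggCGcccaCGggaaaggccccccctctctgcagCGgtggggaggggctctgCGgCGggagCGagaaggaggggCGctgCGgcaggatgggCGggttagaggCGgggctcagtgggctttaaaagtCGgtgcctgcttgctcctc
Grb10: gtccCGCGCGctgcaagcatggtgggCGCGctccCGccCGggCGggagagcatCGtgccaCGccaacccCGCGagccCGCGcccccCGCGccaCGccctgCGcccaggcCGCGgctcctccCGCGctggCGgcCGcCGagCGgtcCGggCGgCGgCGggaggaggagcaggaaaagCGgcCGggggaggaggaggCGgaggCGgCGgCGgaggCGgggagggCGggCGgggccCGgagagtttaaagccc
Slc38a4: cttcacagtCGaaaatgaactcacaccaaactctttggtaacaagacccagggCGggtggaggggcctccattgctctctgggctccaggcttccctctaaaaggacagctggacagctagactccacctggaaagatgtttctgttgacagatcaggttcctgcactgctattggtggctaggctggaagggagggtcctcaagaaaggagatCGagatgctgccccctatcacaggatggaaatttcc
Dlk1: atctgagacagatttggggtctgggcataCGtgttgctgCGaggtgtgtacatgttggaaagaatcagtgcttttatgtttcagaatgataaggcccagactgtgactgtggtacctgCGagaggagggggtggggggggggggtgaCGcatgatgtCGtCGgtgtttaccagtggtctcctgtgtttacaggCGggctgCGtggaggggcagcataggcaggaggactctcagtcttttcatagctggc
Meg3: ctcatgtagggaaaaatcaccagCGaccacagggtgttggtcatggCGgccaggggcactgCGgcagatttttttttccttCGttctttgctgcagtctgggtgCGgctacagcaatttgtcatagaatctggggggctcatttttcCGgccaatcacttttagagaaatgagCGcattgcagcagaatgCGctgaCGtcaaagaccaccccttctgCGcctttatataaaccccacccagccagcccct
In full, these windows held 40 CG for Grb10, 19 for Plagl1, 14 for Mest, 10 for Meg3, 8 for Dlk1 and 3 for Slc38a4. The median was 6 over 32851 windows of the same length. The Dlk1 window, like the Mest window shown, lay inside the annotated span of its gene. Other windows of these genes held 8 for Grb10, 7 and 14 for Mest, 0 for Meg3, and 5 and 5 for Slc38a4. Of all windows, 1.31% held at least as many as the first Grb10 window, 19.7% as that of Plagl1 and 71.0% as the first of Slc38a4. The Plagl1 window was thus above the median CG content and all 3 windows of Slc38a4 were below it. Any link of CG content with the postnatal fall was not tested. A palindrome described for the Plagl1 protein, GGGGCCCC, which reads the same on both strands, was found in 1 of the 14 windows, that of Peg3, and in 0.889% of all windows. It is shown in capitals within 30 bases (chr7:6730602-6730631, strand of Peg3). Unlike the stretches above, this site overlaps an annotated exon of the neighbour Usp29, on the other strand.
Peg3: gactctgcttgGGGGCCCCtaacactgact
The search says only where these letters stand and does not show binding.

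Most of the 10 genes fell steeply after birth. From P1 to P12 weeks 8 of the 10 were lower and none was higher by limma (adjusted p under 0.05, adjusted over all 16720 genes), where 23.5% of all genes were lower and 17.6% higher. The median log2 difference of the 10 was -2.32, against -0.03 over all genes. The set was chosen as imprinted genes that decline together in postnatal organs, with earlier results of these data known. The share and the median therefore describe the set and are no independent test of it. Together they took 0.509% of the reads at E18.5, 0.462% in P1 male and 0.455% in P1 female, then 0.188% and 0.177% in P2 weeks male and female, and 0.0761% and 0.0975% in P12 weeks male and female. The 8 genes that fell were Plagl1, Slc38a4, Mest, Peg3, Grb10, Cdkn1c, Dlk1 and Rtl1, and the 2 that did not pass were Ndn and Meg3. Without P1 female 7 of the 10 were lower, and without P1 male also 7, Cdkn1c being lost each time (adjusted p = 0.0646 and 0.148, limma). The other 7 genes passed this comparison under each of the 18 alternatives. Without P1 female their log2 differences were -5.15 for Plagl1, -4.01 for Mest, -3.74 for Slc38a4, -2.54 for Grb10, -2.24 for Peg3, -1.67 for Dlk1 and -1.28 for Rtl1.

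**Figure D1:**
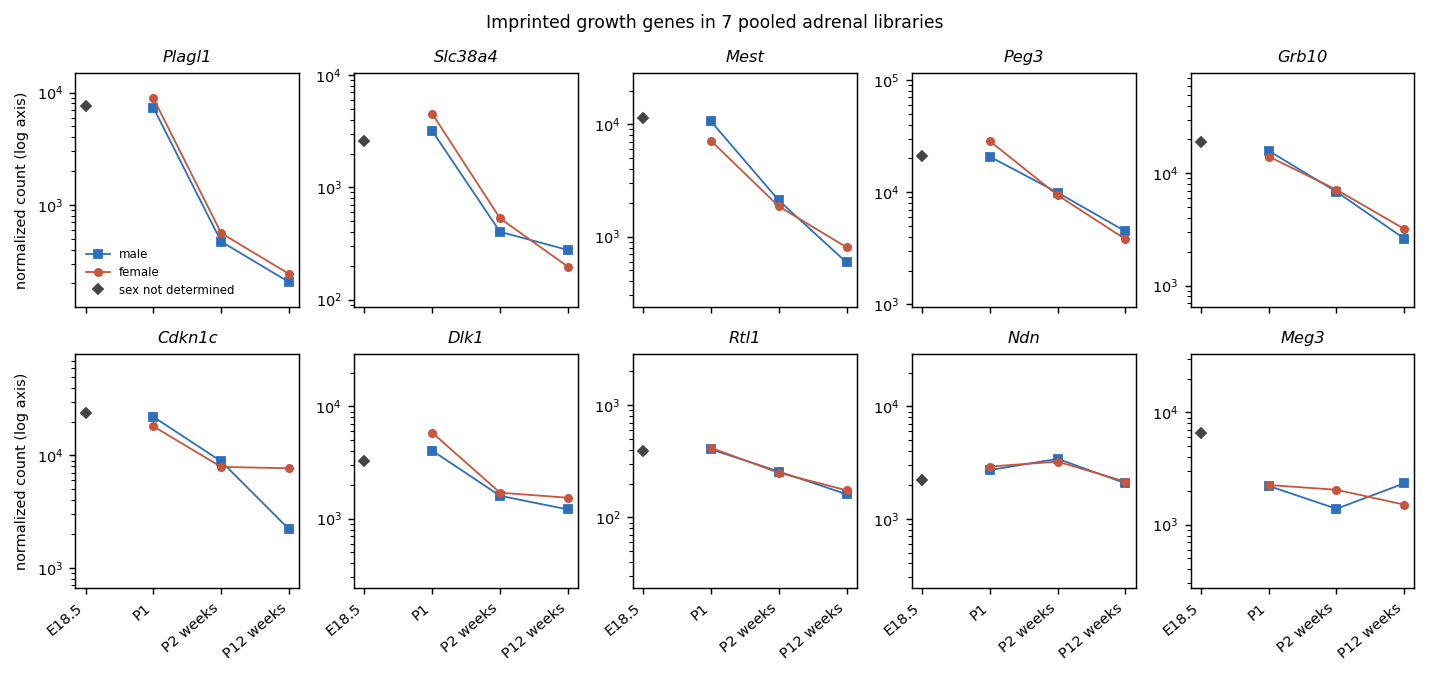
Normalized counts (vertical log axis, each panel with its own range) of the 10 genes by age; squares are male libraries, circles female libraries and diamonds the E18.5 library, 1 pool each, so there are no error bars. Plagl1 drops from 7337 and 8901 at P1 to 205.5 and 243.2 at P12 weeks, while Ndn stays between 2069 and 3415 in all 7 libraries and Cdkn1c splits by sex at P12 weeks.

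Plagl1, which encodes a zinc finger transcription factor that restrains the cell cycle and for which the network is often named, fell most. Its normalized count was 7637 at E18.5, 7337 in P1 male and 8901 in P1 female, then 471.5 and 561.1 in P2 weeks male and female, and 205.5 and 243.2 in P12 weeks male and female. The 3 perinatal libraries were all far above the 4 later ones, with no overlap between the postnatal ages and the sexes close together. The log2 difference was -5.17 ± 0.14 (SE) from P1 to P12 weeks (limma adjusted p = 6.85e-05), a 36.0-fold drop of the mean. Peg3, a large zinc finger gene linked to fetal growth and maternal behaviour, was 20898 at E18.5, 20689 and 28451 in P1 male and female, 9919 and 9388 at P2 weeks, and 4481 and 3816 at P12 weeks. From P1 on, each later age lay below the one before in both sexes, and the drop from P1 to P12 weeks was 5.87-fold (log2 -2.55 ± 0.21, limma adjusted p = 0.000349). The neighbours of Peg3 on the list of other imprinted genes also fell from P1 to P12 weeks. They were the zinc finger gene Zim1 (log2 -4.87 ± 0.20, limma adjusted p = 8.18e-05) and the ubiquitin protease gene Usp29 (-1.79 ± 0.23, 0.0018). Other genes near Peg3, such as the overlapping Peg3os, were not looked at.

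Slc38a4 and Mest came next. Slc38a4, which encodes a system A transporter of neutral amino acids, had 2588 normalized counts at E18.5, 3177 and 4523 in P1 male and female, 402.1 and 530.2 at P2 weeks, and 276.8 and 196.9 at P12 weeks. Its order of the sexes turned between P2 weeks and P12 weeks, and the ages did not overlap. From P1 to P12 weeks it fell 16.2-fold (log2 -4.02 ± 0.26, limma adjusted p = 0.000189). Mest, which encodes an alpha/beta hydrolase family protein of mesoderm-derived tissue, had 11423 at E18.5, 10610 and 7126 in P1 male and female, 2101 and 1859 at P2 weeks, and 588.6 and 803.3 at P12 weeks. It fell 12.6-fold from P1 to P12 weeks (log2 -3.66 ± 0.24, limma adjusted p = 0.000198), each age lying below the one before in both sexes. Copg2, the coat protein gene that overlaps Mest on the other strand, rose over the same interval (log2 0.72 ± 0.21, adjusted p = 0.0321), by 0.32 in males and 1.12 in females. This call held in 11 of 19 settings. Settings that ended it included leaving out P1 female (0.44), P12 weeks female (0.40), P1 male or either P2 weeks library, and equal totals (0.60). Other settings ended it as well.

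The maternally expressed growth inhibitors fell as well. Cdkn1c encodes p57Kip2, an inhibitor of cyclin-dependent kinases that is known in the adrenal cortex, and Grb10 encodes an adaptor that dampens signalling by the insulin and IGF1 receptors. Grb10 had 19086 normalized counts at E18.5, 15841 and 14092 in P1 male and female, 6844 and 7132 at P2 weeks, and 2619 and 3194 at P12 weeks. Its fall of 5.16-fold from P1 to P12 weeks (log2 -2.37 ± 0.17, limma adjusted p = 0.000239) left 16.5% of the P1 level in males and 22.7% in females. Cdkn1c had 23869 at E18.5, 22054 and 18152 in P1 male and female, and 8871 and 7908 at P2 weeks. At P12 weeks it had 2209 in the male library and 7687 in the female library. Per kilobase of exon (GENCODE M21), Cdkn1c had the highest level of the 10 genes in all 5 libraries for which this was computed (E18.5, P1 and P12 weeks), at 11700 normalized counts per kb at E18.5 and 3770 in P12 weeks female, against 2900 per kb for Mest, the next, at E18.5. Its log2 difference from P1 to P12 weeks was -2.28 ± 0.48 (limma adjusted p = 0.0107), with the largest SE of the 10, and was -1.27 without P12 weeks male and -3.29 without P12 weeks female. Of the other genes of its domain, Kcnq1ot1, the noncoding RNA made from the paternal copy, rose (log2 1.90 ± 0.21, adjusted p = 0.00106). Osbpl5 (-0.38 ± 0.16, adjusted p = 0.097) and Slc22a18 (0.41 ± 0.38, adjusted p = 0.42) did not pass, and Phlda2 and Ascl2 were at 13.58 normalized counts or fewer in all libraries and were not tested.

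The 3 genes of the Dlk1-Dio3 domain took different courses. Dlk1, a transmembrane protein related to the Notch ligands that marks progenitor cells, had 3264 normalized counts at E18.5, 4034 and 5837 in P1 male and female, 1600 and 1704 at P2 weeks, and 1209 and 1538 at P12 weeks. It was highest in P1 female, and all 4 later libraries lay below the 3 perinatal ones. The drop from P1 to P12 weeks was 3.56-fold (log2 -1.83 ± 0.16, limma adjusted p = 0.000448). Rtl1, a retrotransposon-derived gene needed in placenta and muscle, had 393.2 at E18.5, 403.4 and 416.1 at P1, 256.2 and 249.7 at P2 weeks, and 160.8 and 174.2 at P12 weeks. The sexes stayed within counting error of each other at each age while the level fell 2.44-fold from P1 to P12 weeks (log2 -1.29 ± 0.19, limma adjusted p = 0.00275).

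Meg3, the maternally expressed noncoding RNA of this domain, had its drop earlier. It had 6512 normalized counts at E18.5, 2213 and 2255 in P1 male and female, 1386 and 2047 in P2 weeks male and female, and 2335 and 1508 in P12 weeks male and female. The E18.5 library was 2.94-fold above P1 male and 2.89-fold above P1 female, and from P1 on the ages overlapped. From P1 to P12 weeks its log2 difference was -0.25 ± 0.27 (limma adjusted p = 0.486), and from E18.5 the P12 weeks male library was 2.79-fold and the female library 4.32-fold lower. Rian and Mirg, the noncoding RNAs that follow Meg3 on the same strand and host small RNAs, had their lowest levels at P2 weeks. Rian had 11851 at E18.5, 6543 and 5118 at P1, 3832 and 3179 at P2 weeks, and 6142 and 4458 at P12 weeks. It fell from P1 to P2 weeks (log2 -0.73 ± 0.14, adjusted p = 0.0195), rose from P2 weeks to P12 weeks (0.58 ± 0.14, adjusted p = 0.0401) and differed between these steps (1.31 ± 0.25, adjusted p = 0.0391). These calls held in 12, 8 and 10 of 19 settings, respectively, and each ended without P1 male, P1 female, P2 weeks male or P2 weeks female (adjusted p of 0.0784 or more). The rise also ended without either P12 weeks library and with equal totals or edgeR. For all of these Rian calls, other settings ended them as well. Mirg, at 48.52 to 261.3, fell from P1 to P2 weeks (log2 -1.16 ± 0.28, adjusted p = 0.0355). Dio3, which encodes the deiodinase that inactivates thyroid hormone, had 4.42 to 53.37 normalized counts and rose from P1 to P2 weeks (log2 2.41 ± 0.45, adjusted p = 0.0167). The Mirg and Dio3 calls also ended without any 1 of these 4 libraries (adjusted p of 0.103 to 0.247).

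**Figure D2:**
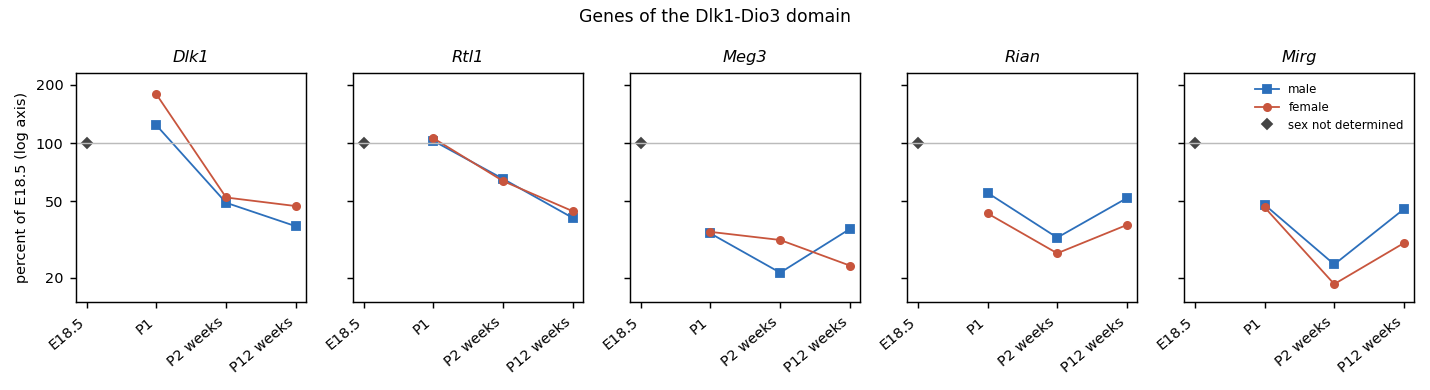
Genes of the Dlk1-Dio3 domain as percent of their own E18.5 level (vertical log axis) at each age; squares are male, circles female, the diamond the E18.5 pool set at 100, 1 library each. Meg3, Rian and Mirg are below their E18.5 level at P1, whereas Dlk1 and Rtl1 are at or above theirs and fall later.

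Ndn encodes necdin, a MAGE family protein abundant in neurons and known to restrain cell division. It had 2212 normalized counts at E18.5, 2713 and 2916 in P1 male and female, 3415 and 3226 at P2 weeks, and 2069 and 2138 at P12 weeks. Its highest level was thus at P2 weeks, unlike the 8 genes that fell, and its whole range over the libraries was 1.65-fold, the smallest of the 10. The log2 difference was 0.24 ± 0.14 from P1 to P2 weeks (limma adjusted p = 0.287), -0.66 ± 0.14 from P2 weeks to P12 weeks (0.0264) and -0.42 ± 0.14 from P1 to P12 weeks (0.0515). Of the genes of its domain, Magel2, another MAGE family gene, fell from P1 to P12 weeks (log2 -3.35 ± 0.33, adjusted p = 0.000696), as did Peg12 (-2.45 ± 0.32, adjusted p = 0.00182). Ube3a, a ubiquitin ligase gene, rose (0.69 ± 0.17, adjusted p = 0.0173, and 0.126 without P1 male or 0.0583 without P1 female), Mkrn3 did not pass (-0.92 ± 0.40, adjusted p = 0.112), and Snrpn was at 8.82 normalized counts or fewer and not tested.

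The fall was split into 2 steps, from P1 to P2 weeks and from P2 weeks to P12 weeks, which share the P2 weeks libraries. In the first step 6 of the 10 genes were lower and none was higher (limma adjusted p under 0.05), where 10.5% of all genes were lower and 5.89% higher. They were Plagl1 (log2 -3.97 ± 0.14), Slc38a4 (-3.03 ± 0.26), Mest (-2.14 ± 0.24), Dlk1 (-1.55 ± 0.16), Peg3 (-1.33 ± 0.21) and Grb10 (-1.10 ± 0.17). Cdkn1c (-1.26 ± 0.48, adjusted p = 0.128), Rtl1 (-0.69 ± 0.19, 0.0516), Meg3 (-0.41 ± 0.27, 0.345) and Ndn did not pass. The count of 6 rested on each P1 library: by limma it was 1, Plagl1, without P1 female (adjusted p = 0.0495), 0 without P1 male (6 at an unadjusted p under 0.05) and 3 without P2 weeks male. In the second step 5 of the 10 were lower and none higher, where 9.89% of all genes were lower and 5.4% higher. They were Mest (-1.52 ± 0.24), Grb10 (-1.27 ± 0.17), Peg3 (-1.22 ± 0.21), Plagl1 (-1.20 ± 0.14) and Ndn (-0.66 ± 0.14). Slc38a4 (-0.98 ± 0.26, adjusted p = 0.0506), Cdkn1c (-1.02 ± 0.48, 0.196), Rtl1 (-0.59 ± 0.19, 0.081), Dlk1 (-0.28 ± 0.16, 0.284) and Meg3 (0.16 ± 0.27, 0.734) did not pass, and the limma count was 0 without P2 weeks male (6 at an unadjusted p under 0.05) and 0 without P2 weeks female (5). Each difference called in either step kept its sign in all alternatives.

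The timing of the fall differed in size from gene to gene. Plagl1 had 6.43% of its P1 level left in males and 6.3% in females by P2 weeks, Slc38a4 12.7% and 11.7%, and Mest 19.8% and 26.1%. Peg3 had 47.9% and 33.0% left at that age and Grb10 43.2% and 50.6%. Dlk1 had 39.7% and 29.2% left at P2 weeks and still 30.0% and 26.3% at P12 weeks. The steps were compared in 1 contrast, the second minus the first, and only Plagl1 of the 10 passed (2.77 ± 0.25, limma adjusted p = 0.00792), its first drop being the larger. Over all genes 1.8% passed in that direction. The Plagl1 call ended without any 1 of the P1 and P2 weeks libraries (adjusted p = 0.0967 to 0.234). Slc38a4 (2.05 ± 0.45, 0.0574) and Dlk1 (1.28 ± 0.28, 0.056) were in the same direction and did not pass.

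**Figure D3:**
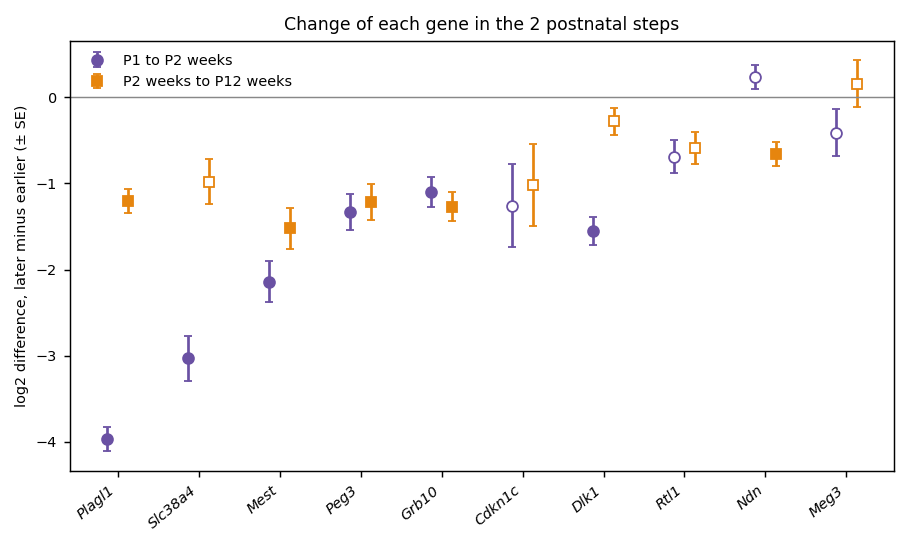
Log2 difference (vertical axis, later minus earlier, bars ± SE from limma over the 6 postnatal libraries) of each gene from P1 to P2 weeks (circles) and from P2 weeks to P12 weeks (squares); filled symbols have an adjusted p under 0.05. Plagl1 falls by 3.97 and then by 1.20, Peg3 and Grb10 by about the same amount in each step, and Meg3 is not called in either.

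Around birth 9 of the 10 genes changed less than 2-fold. From E18.5 to P1, Meg3 was at least 2-fold lower against both P1 libraries (log2 -1.56 against P1 male, 95% counting interval -1.62 to -1.49, and -1.53 against P1 female, -1.60 to -1.46). Of all genes 2.24% were lower and 2.91% higher by this rule, which is no test since E18.5 is 1 library. Among the other 33 imprinted genes tested, Mirg was lower (-1.06 and -1.10) and Gatm higher. The lower levels at P1 were not limited to noncoding RNAs of the Dlk1-Dio3 domain. Kcnq1ot1 differed by -0.69 and -1.42 on the log2 scale, male first. Airn, the noncoding RNA of the Igf2r domain, chosen after its values were seen, differed by -0.93 and -0.87. Neither was 2-fold lower against both P1 libraries, and H19, also noncoding, was higher at P1, by 0.51 and 0.92. Dlk1, Slc38a4 and Ndn were higher in both P1 libraries than at E18.5, by 1.24- and 1.79-fold, 1.23- and 1.75-fold, and 1.23- and 1.32-fold, respectively. Counting intervals cover counting error only and hold no spread between animals or pools. They may be too narrow even for that, since the same molecule may be read more than once.

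Between the sexes, with age as a block, 0 of the 10 genes passed in limma, against 0.00598% of all genes, that is 1 of 16720. No gene was called higher in males. Yet the Y-linked genes summed to 8373 normalized counts in P2 weeks male and 4.41 in P2 weeks female, so this test can miss large sex differences. At an unadjusted p under 0.05 there was 1 of the 10, Dlk1 (log2 male minus female -0.32 ± 0.13), and 0 of the 10 passed in edgeR, DESeq2 and limma voom. At single ages, which have 1 library for each sex and no test, none of the 10 was 2-fold apart at P1 or P2 weeks, where 6.78% and 4.24% of all genes were. The part of the Y-linked RNA found in P1 female in this comparison was not tested, and without P1 female 0 of the 10 passed between the sexes in limma (0 at an unadjusted p under 0.05). At P12 weeks 1 of the 10 was 2-fold apart, a share near the 8.83% of all genes. This was Cdkn1c, 3.48-fold higher in the female library (log2 male minus female -1.80, 95% counting interval -1.88 to -1.72), after 0.28 at P1 and 0.17 at P2 weeks. From P2 weeks to P12 weeks Cdkn1c changed by -2.01 in males and by -0.04 in females. In the same libraries the X-zone genes Akr1c18 and Pik3c2g, which mark an inner cortical layer of the mouse that is known to be lost in males at puberty, summed to 5407 and 27450 normalized counts at P2 weeks and to 2.8 and 802.1 at P12 weeks, male first, with Pik3c2g at 0 in P12 weeks male. The cortex list was 839597 in P12 weeks male and 1118688 in P12 weeks female, and the chromaffin list 82455 and 98845. The X-zone genes were added after seeing the values, and the part of these cell types in the Cdkn1c difference was not tested.

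The 36 other imprinted genes listed, of which 33 passed the filter, were more mixed. From P1 to P12 weeks 15 were lower and 7 higher (limma adjusted p under 0.05), with a median log2 difference of -0.46. Of these 22 calls, 10 held in every setting (H19, Igf2, Zim1, Magel2, Asb4, Peg12, Gatm, Usp29, Rasgrf1 and Kcnq1ot1). The other 12 each ended without at least 1 P1 library, and none changed sign. H19 (-10.43 ± 0.20) and Igf2 (-7.02 ± 0.25), the noncoding RNA and the growth factor of 1 shared domain, fell further than any of the 10. Igf2 had 22913 normalized counts at E18.5, 35815 and 40516 at P1, 998.1 and 1727 at P2 weeks, and 321.6 and 264.7 at P12 weeks. The lower group also held Asb4, Gatm, Nnat, Sfmbt2, Dcn, Peg10, Gnas, Igf2r and Inpp5f, from -2.71 for Asb4 to -0.46 for Inpp5f. The highest rise was that of Rasgrf1, an exchange factor for Ras (4.43 ± 0.28, adjusted p = 0.000182), followed by Kcnq1ot1, and the other 5 (Zrsr1, Copg2, H13, Sgce and Ube3a) rose by 0.69 to 0.74. Whether the 10 genes differ from the other imprinted genes was not tested.

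**Figure D4:**
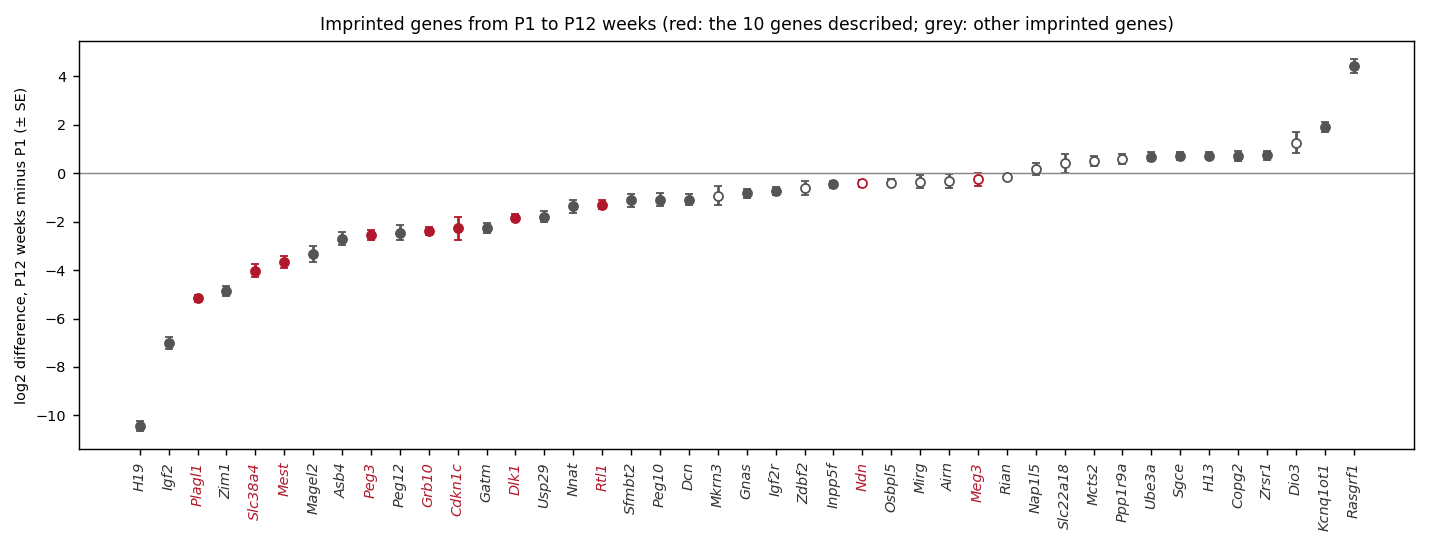
Log2 difference from P1 to P12 weeks (vertical axis, ± SE, limma over the 6 postnatal libraries) of the 10 genes (red) and 33 other imprinted genes (grey), in order of size; filled symbols have an adjusted p under 0.05. The 10 genes lie between Plagl1 at -5.17 and Meg3 at -0.25, with H19 and Igf2 below them and Rasgrf1 at the upper end.

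Markers of other tissues and cell states moved with the same ages. The summed cortex list was at 537915 at E18.5, above both P2 weeks libraries. From P1 on it went the other way from most of the 10 genes. It was at 377136 and 247747 at P1, male first, 508252 and 513272 at P2 weeks, and 839597 and 1118688 at P12 weeks. From P1 to P12 weeks 2 of its 7 genes were higher and none lower (limma). In males Cyp11a1, Cyp21a1 and Cyp11b1 were lower at P2 weeks than at P1, while Star, Hsd3b1, Mc2r and Nr5a1 were higher. In females all 7 were higher at P2 weeks than at P1. The chromaffin list was at 46832 and 91937 at P1, 123882 and 106254 at P2 weeks, and 82455 and 98845 at P12 weeks. The connective tissue matrix list (Col1a1, Col1a2, Col3a1, Lum and Fn1) summed to 151728 at E18.5, 191647 and 214107 at P1, 42138 and 46140 at P2 weeks, and 9647 and 7855 at P12 weeks, and 5 of 5 genes fell from P1 to P2 weeks (limma). Skeletal muscle genes were at 36963 at E18.5 and at 73862 and 133050 at P1. They went to 115.6 and 4092 at P2 weeks and 34.95 and 37.34 at P12 weeks, with Actc1 at 0 in P12 weeks female. Liver genes were at 292734 at E18.5 and at 373031 and 256184 at P1. They went to 12658 and 32689 at P2 weeks and 420.8 and 411.8 at P12 weeks. These 3 lists dropped in both steps. The median log2 difference of their genes, first step then second, was -2.07 and -2.13 for matrix. It was -7.42 and -3.78 for muscle, and -3.91 and -5.15 for liver. In the first step 6 of 6 muscle and 6 of 6 liver genes were lower (limma). In the second step 4 of 5 matrix, 4 of 6 muscle and 5 of 6 liver genes were lower.

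The kidney list was at 8508 and 2389 at P1 and at 33.56 to 57.82 later, and 4 of its 5 genes (Umod, Slc34a1, Slc12a1 and Nphs1) were at 0 at P12 weeks. The exocrine pancreas list was at 5485 in P1 male, 64.02 in P1 female and at most 1.78 later, with 5 of 6 genes at 0. Erythroid genes went from 11600 and 13287 at P1 to 1233 and 555.5 at P12 weeks. Adipocyte genes moved the other way, from 2881 and 3002 at P1 to 40763 and 45114 at P2 weeks. The capsule list, whose cells include cortical progenitors, summed to 9503 and 11549 at P1, 5120 and 5536 at P2 weeks, and 6556 and 6947 at P12 weeks, with 5 of 6 genes lower and 1 higher from P1 to P12 weeks. Cell cycle genes were at 22356 and 23188 at P1, 17898 and 18419 at P2 weeks (0 of 8 called from P1 by limma) and 1380 and 1504 at P12 weeks (8 of 8 lower from P2 weeks). The part of these cells and states in the fall of the 10 genes was not tested.

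**Figure D5:**
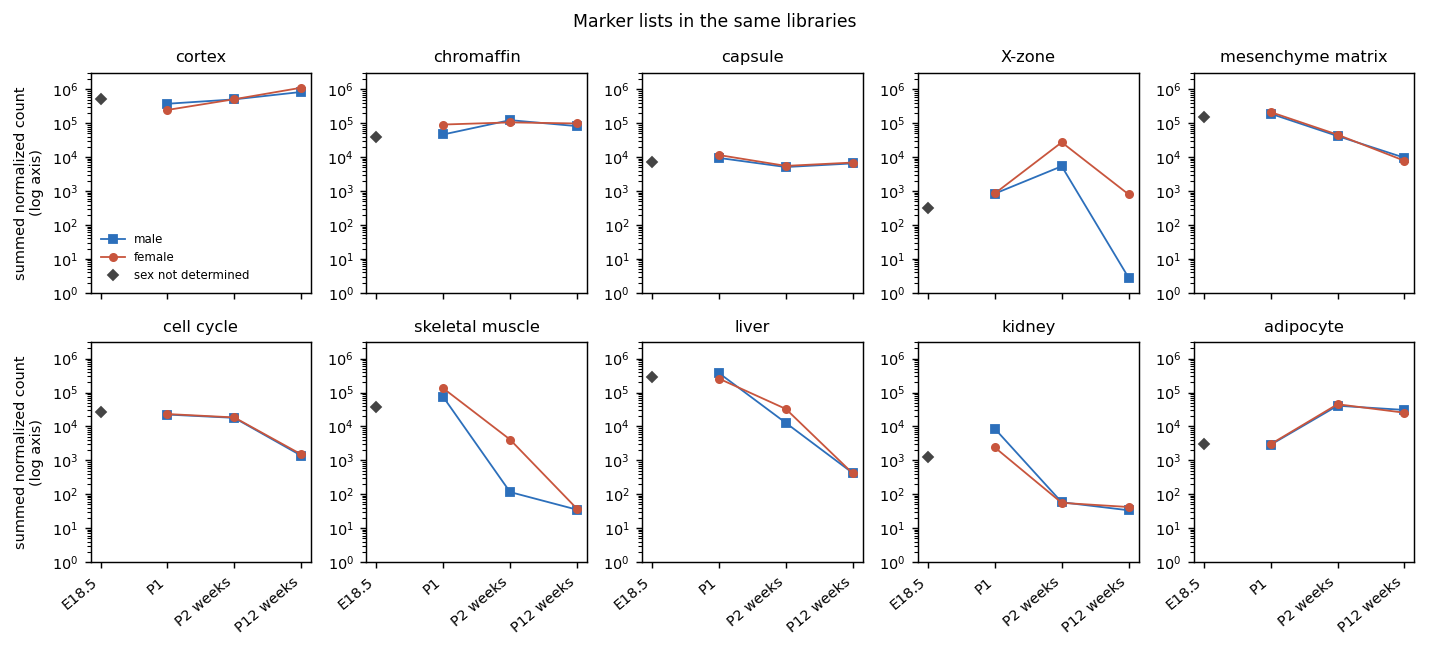
Summed normalized counts of the marker lists (vertical log axis) by age in the same libraries; squares are male, circles female and diamonds E18.5, 1 pool each. Matrix, muscle, liver and kidney lists fall from P1 to P2 weeks, the cell cycle list is at its lowest at P12 weeks, and the cortex list goes from 377136 and 247747 at P1 to 839597 and 1118688 at P12 weeks.

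For each of the 10 genes the most similar profile was found among 12151 genes whose mean was 100 normalized counts or more, by Pearson's r of log2 values over the 7 libraries, as a description; imprinted genes and markers on the lists were left out. Slc38a4 and Myl4, which encodes a myosin light chain, were closest (r = 0.9999): Myl4 had 199.1 at E18.5, 244.7 and 349.9 at P1, 34.69 and 43.23 at P2 weeks, and 23.77 and 16.97 at P12 weeks. Both profiles peaked in P1 female and were lowest in P12 weeks female. Plagl1 was closest to Sema3c, a secreted guidance protein (r = 0.9972), Dlk1 to Antxr1, a receptor of the cell surface that binds collagen (0.9973), Peg3 to Ank3, an ankyrin (0.9983), and Grb10 to Clca3a1 (0.9984), a secreted protein of the calcium-activated chloride channel regulator family. Mest was closest to Rps6ka1, a ribosomal S6 kinase (0.9979), Cdkn1c to Mcmbp, which binds the MCM helicase (0.9963), and Rtl1 to Znrf1, a ubiquitin ligase (0.9969). Meg3 (the thiopurine methyltransferase gene Tpmt, 0.9708) and Ndn (the transport adaptor gene Trak1, 0.986) had the least similar best partners. The 7 points share their age and tissue make-up, and no p is given.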

How the data were processed

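Total RNA of 7 pooled adrenal samples was sequenced, 1 library for each. The submitters' processing notes name CASAVA 1.8.2, HISAT2 2.1.0, HTSeq 0.9.1, DESeq2 2.11.40.6 and the build mm10; the annotation and the use of strand are not given in the sources used here. The deposited signal values are normalized counts per gene: 100.0% were whole reads divided by 1 size factor per library (within 0.001 reads), and these factors matched median-ratio factors over 18040 genes.

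Tests used limma 3.58.1 in R 4.3.3 (lmFit, eBayes with trend) on log2(normalized count + 1), which understates changes of low genes, with age and sex terms over 6 postnatal libraries and 2 residual degrees of freedom. Tests were two-sided, with Benjamini-Hochberg adjustment over 16720 genes with a mean of at least 10 and a threshold of 0.05. E18.5 and single ages were described by folds of at least 2. Alternatives covered pseudocount, filter, scaling, edgeR 4.0.16, DESeq2 1.42.0 and voom on recovered reads, the trend, the sex block and each library left out.

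Genes named were the 10, other imprinted genes that passed from P1 to P12 weeks or lie in a domain of the 10, the most similar gene to each, and markers. The members and lists were chosen with earlier results of these data known, and the X-zone and Y-linked genes were added after seeing the values. Positions and promoters are from RefSeq (GRCm38.p6) and exon lengths from GENCODE M21.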

Additional observations from a re-analysis of the deposited data

Results flagged for a closer look

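Meg3 went opposite ways in the sexes from P2 weeks to P12 weeks, by 0.75 on the log2 scale in males (1386 to 2335 normalized counts) and by -0.44 in females (2047 to 1508). Each change was larger than counting error. With 1 library for each sex and age, the difference between the sexes was not tested.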

How the results depend on the processing

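Of the 20 differences of the 10 genes called above, none changed sign in any alternative; of 360 alternative values, 308 stayed past the threshold and 52 did not. With every gene above 0 kept, 0 of the 10 and 0 of all genes passed from P1 to P2 weeks, from P2 weeks to P12 weeks and between the steps, and 0 genes between the sexes by limma, with 7, 7 and 4 of the 10 and 783 genes at an unadjusted p under 0.05. Without the trend, 2 of the 10 passed from P2 weeks to P12 weeks and 0 between the steps, and over all genes 1672 passed from P1 to P2 weeks, 1661 from P2 weeks to P12 weeks, 84 between the steps and 0 between the sexes. Between the steps DESeq2 called 4 of the 10 and 1388 genes, voom 3 of the 10, and the fit with no sex block 2 of the 10. Between the sexes edgeR called 0 genes (667 unadjusted) and DESeq2 9. At 1.5-fold, 2 of the 10 were apart by sex at P12 weeks. The cause was not tested. With equal totals the median log2 difference of all genes was -0.20 from P2 weeks to P12 weeks and -0.15 from P1 to P12 weeks, against -0.03 for each as reported, with 2514 genes lower and 647 higher in the former against 1654 and 903, and 693 and 259 between the steps against 460 and 301.

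Leaving out 1 library gave 0 to 8 of the 10 from P1 to P2 weeks (all genes 2 to 4461), 0 to 6 from P2 weeks to P12 weeks (421 to 3035), 7 to 9 from P1 to P12 weeks (3207 to 6271), 0 to 4 between the steps (0 to 2039) and 0 to 0 between the sexes (0 to 51). Each such fit has 1 residual degree of freedom, and the lone library of an age is assumed to vary like the others. No paired analysis was possible because each group has 1 pooled library, so replicate numbers pair nothing; age and sex were terms of the fit. Depth limits only the low genes, such as Dio3 and Mirg.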

Other observations

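Among the other imprinted genes, Peg10, a retrotransposon-derived gene, and Nnat, which encodes neuronatin, went opposite ways in the sexes from P1 to P2 weeks beyond counting error. Peg10 changed by 0.27 in males and by -0.37 in females on the log2 scale, and Nnat by 0.17 and -0.29. From P2 weeks to P12 weeks the same held for Zdbf2 (0.13 and -0.67), Dcn, the matrix proteoglycan decorin (0.20 and -0.53), and Ppp1r9a (-0.31 and 0.16). These are differences between single libraries and were not tested.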
